A study of Mus musculus with 76 samples.

Results

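The results describe 5 genes for receptors of metabolic hormones, *Lepr*, *Insr*, *Igf1r*, *Glp1r* and *Ghsr*, of the 56980 genes in the deposited count table. They were chosen by name, and their levels, the share of cells with a count and their co-detection in single cells were compared between labels and diets. The cells are 76 hypothalamic neurons profiled by Patch-seq, which joins a patch-clamp recording in a slice to RNA sequencing of the cell drawn into the pipette, here over 3 min. They came from male PomcCreERT2;tdTomato;Pomc-eGFP mice, a name that the results of the study give and that its methods shorten to PomcCreERT2;tdTomato. All mice received tamoxifen at 12 weeks of age on 5 consecutive days and were placed 2 weeks later on chow diet (CD) or high-fat diet (HFD) for 6 months. Tamoxifen activates the Cre recombinase, which is driven by elements of the *Pomc* promoter, and tdTomato then marks the cell permanently, while eGFP reports current activity of a *Pomc* promoter. Cells with tdTomato and eGFP were labelled Pomc+ (23 on CD, 19 on HFD), and cells with tdTomato but no eGFP were labelled Ghost (15 on CD, 19 on HFD). Cells were picked by this fluorescence, so the groups were not drawn at random from the tissue, and cells in which recombination did not occur are not represented.

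These receptors couple signals from fat, pancreas and gut to hypothalamic feeding circuits. The leptin receptor *Lepr* is a cytokine receptor that signals through Jak2 and Stat3. The insulin receptor *Insr* and its close relative *Igf1r*, the receptor for insulin-like growth factor 1, are receptor tyrosine kinases that act through insulin receptor substrates, PI3-kinase and Akt. *Glp1r*, the receptor for glucagon-like peptide 1, couples to the stimulatory G protein Gs and raises cyclic AMP, and *Ghsr*, the ghrelin receptor, couples to Gq. Neurons that express *Pomc*, the precursor of the satiety peptide alpha-MSH, are known targets of leptin, insulin and glucagon-like peptide 1, while ghrelin is best known for its action on neighbouring AgRP neurons.

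The question for each receptor was whether its transcript differed with loss of the eGFP label or with diet. The labels name no mouse, so the cells of a label and diet count as 1 sample without replicate animals, although the study used 5 mice per diet. No p-value was therefore computed, and intervals are exact 95% intervals (Clopper-Pearson for shares, Poisson for summed counts) that cover counting error only. Total counts ranged from 4057 to 1452605 per cell and the genes counted ranged from 548 to 9808, so that a cell without a count may be a cell sequenced too shallowly. Levels are given as CPM, the count of a gene scaled to 1000000 counts in the cell. Reads carry no molecular identifiers and are therefore not independent molecules. The 8 neuronal markers checked had a median summed level of 2421 CPM and were at 0 in 1 cell. *Pomc* itself was counted in 41 of 42 Pomc+ and 32 of 34 Ghost cells, with mean levels of 7925 and 4838 CPM, respectively. Its mean was lower in Ghost cells on CD, but on HFD it was slightly higher in Ghost than in Pomc+ cells.

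All 5 genes are protein coding. On the GRCm38 build (GENCODE M21), *Lepr* lies on chromosome 4 from 101717404 to 101815352 on the plus strand, and *Insr* on chromosome 8 from 3122061 to 3279617 on the minus strand. *Igf1r* lies on chromosome 7 from 67952827 to 68233668, *Glp1r* on chromosome 17 from 30901817 to 30940791 and *Ghsr* on chromosome 3 from 27371351 to 27378010, all on the plus strand. *Insr* and *Glp1r* each overlap 2 genes on the other strand, none of which shares an exonic base with them or had a count in any cell.

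Receptor transcripts were sparse in every group. Together the 5 genes took 3153 of all counts, which is 0.00958% of the total, and 40 of the 76 cells (52.6%, interval 40.8 to 64.2) had a count of at least 1 of them. *Insr* was counted in 19 cells, *Glp1r* in 18, *Igf1r* in 17, *Lepr* in 10 and *Ghsr* in 3. For comparison, genes with any count were counted in a median of 5 cells. Of the 67 receptor values above 0, 17 were of 1 to 3 counts, and 8 of these belonged to *Igf1r*. Of the 5 genes, 4 passed the filter used for comparisons across all genes, at least 5 counts in at least 3 cells, and *Ghsr* did not.

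**Figure D1:**
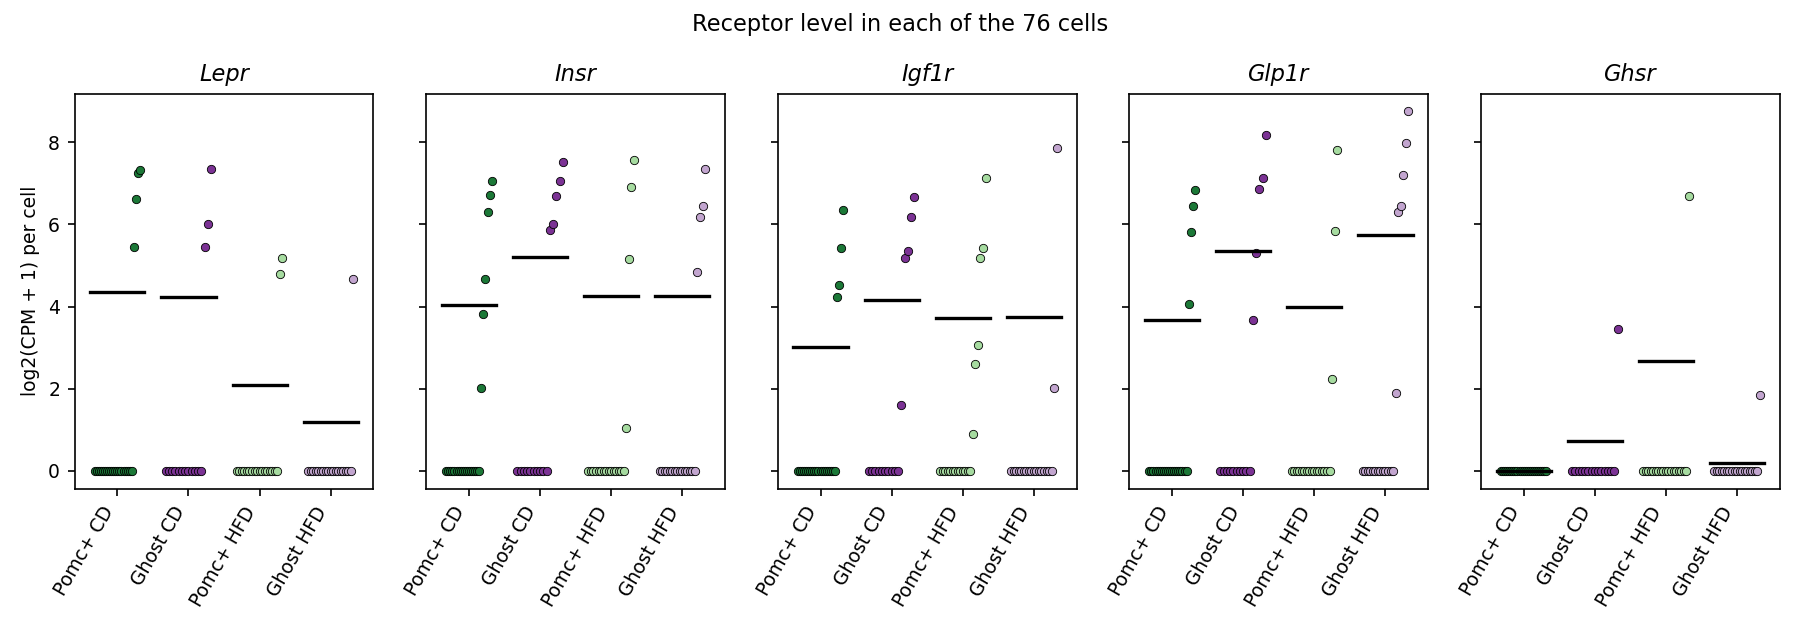
Level of each receptor in each of the 76 cells, as log2(CPM + 1), by label and diet (23 Pomc+ CD, 15 Ghost CD, 19 Pomc+ HFD and 19 Ghost HFD cells). Each point is 1 cell, points at 0 had no count, and the black line is the log2(mean CPM + 1) of the group. Most cells sit at 0 in every group, and the highest value, 431 CPM of *Glp1r*, is in a Ghost cell on HFD.

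Levels can be set against each other between genes only per length of transcript. Over all 76 cells the mean level per kb of exon was highest for *Glp1r*, at 4.85 CPM per kb. *Insr* and *Lepr* followed with nearly equal means of 1.52 and 1.5004 CPM per kb, then *Igf1r* at 0.689 and *Ghsr* at 0.341 CPM per kb. In Pomc+ cells *Lepr* (1.73 CPM per kb) stood above *Insr* (1.21 CPM per kb), with 2.78 against 1.13 CPM per kb on CD but 0.461 against 1.31 CPM per kb on HFD. In Ghost cells *Insr* (1.89 CPM per kb) stood above *Lepr* (1.22 CPM per kb), nearly level on CD at 2.61 against 2.53 CPM per kb. The exon lengths are those of GENCODE M21 (7.05 kb for *Lepr*, 13.7 kb for *Insr*, 16.8 kb for *Igf1r*, 5.81 kb for *Glp1r* and 4.43 kb for *Ghsr*), and the transcripts that the cells use were not resolved.

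*Lepr*, the receptor through which leptin acts on these neurons, was counted in 10 cells, 7 on CD and 3 on HFD. Among Pomc+ cells on CD it had 127 counts (159 CPM) in cell 667, 93 counts (152 CPM) in cell 707, 50 counts (96.8 CPM) in cell 669 and 17 counts (42.8 CPM) in cell 703. Among Ghost cells on CD it had 19 counts (161 CPM) in cell 691, 20 counts (63.2 CPM) in cell 709 and 11 counts (42.9 CPM) in cell 690. The highest levels of both labels on CD lay close together. On HFD the 2 Pomc+ cells were cell 638 with 25 counts (35.1 CPM) and cell 654 with 13 counts (26.6 CPM), and the 1 Ghost cell was cell 637 with 32 counts (24.5 CPM). All 3 HFD values in CPM lay below the lowest of the 7 CD values, but on the deposited normalized scale 3 of the CD values, 15.1, 8.69 and 6.55, lay below the lowest HFD value of 16.2, and the groups as wholes overlapped because most cells of each were at 0.

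The share of cells with *Lepr* was 17.4% of Pomc+ cells on CD (4 of 23, interval 4.95 to 38.8), 20% of Ghost cells on CD (3 of 15, 4.33 to 48.1), 10.5% of Pomc+ cells on HFD (2 of 19, 1.30 to 33.1) and 5.26% of Ghost cells on HFD (1 of 19, 0.133 to 26.03). These intervals overlap, and no difference in share was tested, because the mouse of each cell is not known. Mean *Lepr* on HFD was 0.166 times that on CD in Pomc+ cells (3.25 against 19.6 CPM) and 0.0723 times in Ghost cells (1.29 against 17.8 CPM). With single cells left out the ratio stayed below 1, from 0.0755 to 0.245 in Pomc+ cells and from 0.0675 to 0.17 in Ghost cells. The Ghost range does not include leaving out cell 637. That cell alone had *Lepr* among Ghost cells on HFD, so without it no count remains there and no ratio was formed. On the deposited normalized scale it was 0.506 and 0.174. A ratio past 2-fold was common among all genes in these comparisons. In Pomc+ cells 47.8% of the genes that passed the filter, and 57.1% of the genes counted in 5 to 25 cells, differed at least 2-fold in mean CPM between diets. In Ghost cells the corresponding shares were 53.6% and 63.9%, so a 2-fold difference in a gene this sparse is not in itself particular to *Lepr*. The *Lepr* ratios of mean CPM lie further from 1 than that, and the share of genes differing as much was not computed.

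Other measures differed between the diets as well. The summed level of 9 microglial markers had a median of 13.2 CPM over CD cells (0 to 2509) and 419 CPM over HFD cells (0 to 13619), and was at 0 in 15 of 38 CD and 7 of 38 HFD cells. *P2ry12*, one of these markers, was counted in 7 HFD cells and in none of the 38 CD cells. The 10 cells with *Lepr* had a median of 154 CPM of these markers. Its part in the *Lepr* result was not tested. All 3 HFD cells with *Lepr* were among the 21 HFD cells numbered 637 to 657, and none of the other 17 HFD cells had a count.

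Between labels, mean *Lepr* over both diets was 8.58 CPM in Ghost and 12.2 CPM in Pomc+ cells, a ratio of 0.704. It ran from 0.325 without cell 691 to 0.997 without cell 667, and was 0.910 on CD and 0.397 on HFD. In this comparison 41.2% of the genes passing the filter and 50.1% of those counted in 5 to 25 cells were past 2-fold, with a median log2 ratio over all genes of -0.15. The *Lepr* ratio over both diets lies within that fold. Among the cells with more genes counted than the median of 2670.5 it was 1.201, so the direction between labels depended on which cells were compared.

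*Insr*, the most widely counted of the receptors, was present in both labels on both diets at similar shares, 26.1% (6 of 23) and 33.3% (5 of 15) of Pomc+ and Ghost cells on CD and 21.1% (4 of 19) of each on HFD. In Pomc+ cells on CD it had 105 counts (78.4 CPM) in cell 630, 87 counts (133 CPM) in cell 632 and 20 counts (105 CPM) in cell 660, and lower levels of 24.4, 13.05 and 3.06 CPM in cells 707, 663 and 665. In Ghost cells on CD all 5 values lay between 57.4 CPM (39 counts, cell 687) and 184 CPM (181 counts, cell 636). On HFD the Pomc+ values were 188 CPM in cell 654, 119 CPM in cell 638, 34.5 CPM in cell 717 and 1.06 CPM, a single count, in cell 647. The Ghost values were 162 CPM in cell 656, 85.8 CPM in cell 671, 71.2 CPM in cell 637 and 27.8 CPM, 3 counts, in cell 715. The values above 0 of the labels overlapped on both diets.

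The mean of *Insr* in Ghost cells was 26.04 CPM, against 16.7 CPM in Pomc+ cells. This ratio of 1.56 turned to 0.638 on the deposited normalized scale and was 2.87 without the 7 genes counted in every cell in the total. Within diets it was 2.31 on CD, where 50.8% of filtered genes and 60.1% of genes counted in 5 to 25 cells were past 2-fold. On the deposited scale it was 0.954 on CD. The median log2 ratio over all filtered genes on that scale was -0.64 over both diets and -0.74 on CD. On HFD the ratio of mean CPM of *Insr* was 1.01, where the shares past 2-fold were 51.8% and 60.8%. No direction between labels can therefore be given for *Insr*. From CD to HFD the ratio was 1.16 in Pomc+ cells (0.554 to 1.77 with any 1 cell left out) and 0.508 in Ghost cells (0.286 to 0.719).

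*Igf1r* was counted in 17 cells, but at low counts. In Pomc+ cells on CD it had 41 counts (41.9 CPM) in cell 665, 9 (17.7 CPM) in cell 666, 8 (80.9 CPM) in cell 692 and 2 (21.8 CPM) in cell 689. In Ghost cells on CD, 4 of the 5 cells had 1 to 3 counts, and cell 690 had 26 counts (101 CPM). On HFD the Pomc+ cells held 51 counts (35.5 CPM) in cell 651, 30 (42.1 CPM) in cell 638, 16 (139 CPM) in cell 670, 7 (7.40 CPM) in cell 647, 2 (5.08 CPM) in cell 718 and 1 (0.866 CPM) in cell 642. The 2 Ghost cells on HFD had 4 counts (3.06 CPM, cell 637) and 3 counts (233 CPM, cell 657, which had only 12900 counts in all). Ghost cells with at least 5 counts numbered 1 of 34, against 7 of 42 Pomc+ cells.

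The level of *Igf1r* in Ghost relative to Pomc+ cells depended on how cells were weighted. The ratio of mean CPM was 1.53, without cell 657 it was 0.823, and with counts summed over the cells of a label it was 0.335, from 41 counts (interval 29.4 to 55.6) in Ghost and 167 counts (143 to 194) in Pomc+ cells. When the cells under 40000 counts were left out, the ratio of mean CPM was 0.502. The share of cells was 23.8% (10 of 42, interval 12.1 to 39.5) in Pomc+ and 20.6% (7 of 34, 8.70 to 37.9) in Ghost cells. By diet it was counted in 4 of 23 and 6 of 19 Pomc+ cells and in 5 of 15 and 2 of 19 Ghost cells on CD and HFD. Their intervals overlap.

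*Glp1r*, the target of the incretin drugs, reached the highest single-cell level of the 5 receptors and was higher in mean in Ghost than in Pomc+ cells on both diets. In Pomc+ cells on CD it had 116 counts (86.6 CPM) in cell 630, 112 (114 CPM) in cell 665, 36 (55.1 CPM) in cell 632 and 3 (15.8 CPM) in cell 660. In Ghost cells on CD it had 34 counts (288 CPM) in cell 691, 44 (139 CPM) in cell 709, 90 (116 CPM) in cell 635, 38 (38.6 CPM) in cell 636 and 3 (11.7 CPM) in cell 690. The upper values of Ghost cells on CD thus exceeded those of the Pomc+ cells, and the lower ones overlapped. On HFD the 3 Pomc+ cells had 110 counts (225 CPM, cell 654), 40 (56.2 CPM, cell 638) and 2 (3.71 CPM, cell 641). The 6 Ghost cells on HFD had 435 counts (431 CPM, cell 649), 327 (250 CPM, cell 637), 173 (145 CPM, cell 643), 26 (85.8 CPM, cell 671), 1 (77.5 CPM, cell 657) and 1 (2.69 CPM, cell 640). In both labels cells at 0 were the majority.

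The mean of *Glp1r* in Ghost cells was 46.6 CPM, 3.52 times the 13.3 CPM of Pomc+ cells. It was 3.35 on CD (39.6 against 11.8 CPM) and 3.48 on HFD (52.2 against 14.9985 CPM). The ratio stayed above 1 without any single cell, at the lowest 2.64 over both diets (without cell 649), 1.84 on CD (without cell 691) and 2.08 on HFD (without cell 649). It was 1.98 on the deposited normalized scale and 3.81 with counts summed over cells, from 1172 counts (interval 1106 to 1241) in Ghost and 419 (380 to 461) in Pomc+ cells. The share of cells was 32.4% (11 of 34, 17.4 to 50.5) in Ghost and 16.7% (7 of 42, 6.97 to 31.4) in Pomc+ cells, with overlapping intervals, and with at least 5 counts it was 8 of 34 against 5 of 42. In the comparison over both diets 41.2% of filtered genes and 50.1% of genes counted in 5 to 25 cells were past 2-fold in either direction. Being past 2-fold therefore does not in itself set *Glp1r* apart, and the share of genes past 3.52-fold was not computed. Of all genes passing the filter, 16.5% were at least 2-fold higher in Ghost cells and 24.8% at least 2-fold lower.

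Markers of AgRP neurons also differed between the labels. *Agrp* and *Npy* summed to a mean of 74.9 CPM over the Ghost cells (0 to 480) against 6.87 CPM over the Pomc+ cells (0 to 178), and both were at 0 in 19 of 34 and 36 of 42 cells. Of the 11 Ghost cells with *Glp1r*, 5 had a count of *Agrp* or *Npy*. Of the 7 Pomc+ cells with *Glp1r*, 3 had one, among them cell 654 (225 CPM of *Glp1r*). Without the cells that had a count of either gene, mean *Glp1r* was 55.03 CPM over 19 Ghost cells against 7.22 CPM over 36 Pomc+ cells, a ratio of 7.62. Leaving out cell 654 alone gave a ratio of 5.76. The part of *Agrp* and *Npy* cells in the result was not tested. Markers of astrocytes stood the other way, with a median sum of 156 CPM over the Ghost cells (0 to 2110) and 483 CPM over the Pomc+ cells (0 to 4307), and their part was not tested either. Median depth was 123528 counts in Ghost and 339691 counts in Pomc+ cells on CD, and 333785 and 393797 counts on HFD. Where cell numbers run consecutively on 1 diet, *Glp1r* was counted in 6 of the 8 such runs, and its mean was higher in Ghost than in Pomc+ cells in 5 of them and lower in 1. These runs were small, and 8 of the 9 HFD cells with *Glp1r* were among cells 637 to 657. In cells 699 to 712 the difference rested on Ghost cell 709, the only cell there with a count. Among cells 630 to 636 the means were close, at 51.4 CPM in Ghost and 47.3 CPM in Pomc+ cells. Cells 670 to 673 held only 1 Ghost cell.

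Between diets, the direction of *Glp1r* depended on single cells. Mean CPM on HFD was 1.27 times that on CD in Pomc+ cells (0.281 without cell 654, 2.09 without cell 665) and 1.32 times in Ghost cells (0.789 without cell 649, 2.40 without cell 691). On the deposited normalized scale these were 2.60 and 2.14. It was counted in 9 of 38 cells on each diet.

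*Ghsr*, which AgRP neurons use to sense ghrelin, was counted in only 3 of the 76 cells. It had 50 counts (102 CPM) in Pomc+ HFD cell 654, 5 counts (9.94 CPM) in Ghost CD cell 661 and 1 count (2.62 CPM) in Ghost HFD cell 646. None of 23 Pomc+ cells on CD had a count, which allows a share of up to 13.04% if a count of 3 cells is taken as the limit (the exact interval reaches 14.8%). Cell 654 held 89.3% of all *Ghsr* counts, had 9 counts of *Agrp* and none of *Npy*, and also carried *Lepr*, *Insr* and *Glp1r*. No ratio between groups was computed as a result for *Ghsr*, because each group rests on at most 1 cell.

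**Figure D2:**
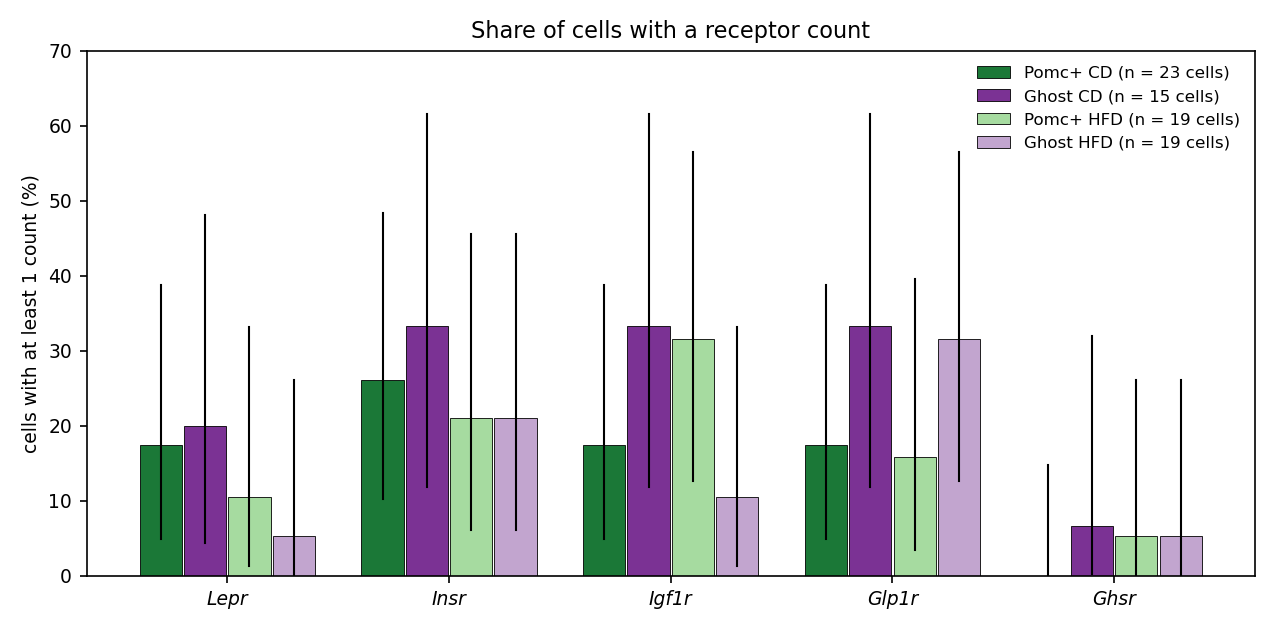
Share of cells with at least 1 count of each receptor, by label and diet, in percent. Bars are shares of 23, 15, 19 and 19 cells and lines are exact 95% Clopper-Pearson intervals. For each receptor all intervals overlap, and *Glp1r* shares are 33.3% and 31.6% in the Ghost groups and 17.4% and 15.8% in the Pomc+ groups.

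Receptors were not spread evenly over cells. Of the 76 cells, 36 had none of the 5, 25 had 1, 7 had 2, 4 had 3 and 4 had 4, and no cell had all 5. At least 1 receptor was counted in 50% of Pomc+ cells (21 of 42, interval 34.2 to 65.8) and 55.9% of Ghost cells (19 of 34, 37.9 to 72.8). At least 2 were counted in 19.05% (8 of 42, 8.60 to 34.1) and 20.6% (7 of 34, 8.70 to 37.9). The intervals of the labels overlapped. No difference between them in the number of receptors per cell was tested, because the mouse of each cell is not known. By diet, at least 2 receptors were counted in 23.7% of CD cells (9 of 38, 11.4 to 40.2) and 15.8% of HFD cells (6 of 38, 6.02 to 31.3).

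**Figure D3:**
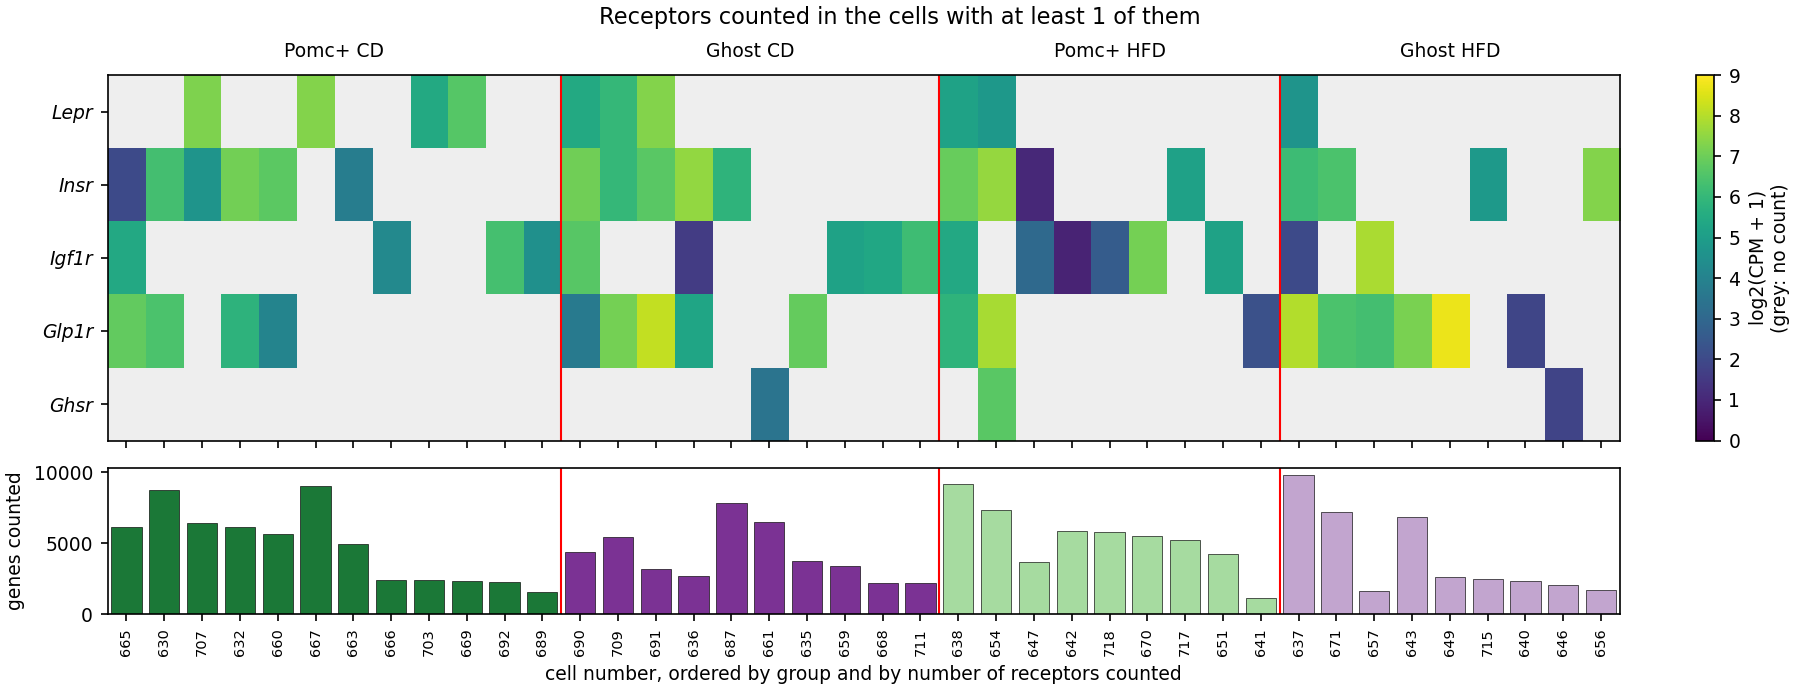
The 40 cells with a count of at least 1 receptor, ordered by group and by the number of receptors counted. Upper panel, log2(CPM + 1) of each receptor with grey for no count; lower panel, genes counted in the cell. *Insr* and *Glp1r* share 12 columns, more than any other pair, and the 8 cells with 3 or 4 receptors carry both.

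The 4 cells with 4 receptors were Ghost CD cell 690 and Ghost HFD cell 637, both with *Lepr*, *Insr*, *Igf1r* and *Glp1r*, Pomc+ HFD cell 638 with the same 4, and Pomc+ HFD cell 654 with *Ghsr* in place of *Igf1r*. The 3-receptor cells were Ghost CD cells 691 and 709 (*Lepr*, *Insr* and *Glp1r*) and cell 636 and Pomc+ CD cell 665 (*Insr*, *Igf1r* and *Glp1r*). All 8 thus carried both *Insr* and *Glp1r*.

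*Insr* and *Glp1r* were counted together in 12 cells, 63.2% of the *Insr* cells (interval 38.4 to 83.7) and 66.7% of the *Glp1r* cells (40.99 to 86.7). Among the 57 cells without *Insr*, *Glp1r* was counted in 10.5% (6 cells, 3.96 to 21.5). Counting only cells with at least 5 counts of each receptor left 9 of the 12. The overlap was present in both labels, in 6 of 7 *Glp1r* cells that were Pomc+ and 6 of 11 that were Ghost. By diet it was 8 of 9 *Glp1r* cells on CD (88.9%, interval 51.8 to 99.7, against 10.3% of the cells without *Glp1r*, 2.19 to 27.4). On HFD it was 4 of 9 (44.4%, 13.7 to 78.8, against 13.8%, 3.89 to 31.7), and there the intervals overlap. The Jaccard index, the cells with both over the cells with either, was 0.480.

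*Lepr* was found with *Insr* in 7 of its 10 cells (70%, interval 34.8 to 93.3) and with *Glp1r* in 6 (60%, 26.2 to 87.8). In the 66 cells without *Lepr*, each of the 2 was counted in 18.2% (12 cells, 9.76 to 29.6). All 4 Ghost cells with *Lepr* also had *Insr* and *Glp1r*, against 3 and 2 of the 6 Pomc+ cells. In the remaining Pomc+ cells, 667, 669 and 703, *Lepr* was the only receptor counted, although cell 667 had 9041 genes counted. *Igf1r* overlapped less, with *Insr* in 6 of its 17 cells (35.3%, 14.2 to 61.7), with *Glp1r* in 6 and with *Lepr* in 3. Without *Igf1r*, *Insr* was counted in 22.03% of 59 cells (12.3 to 34.7), and that interval overlaps the one with it.

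**Figure D4:**
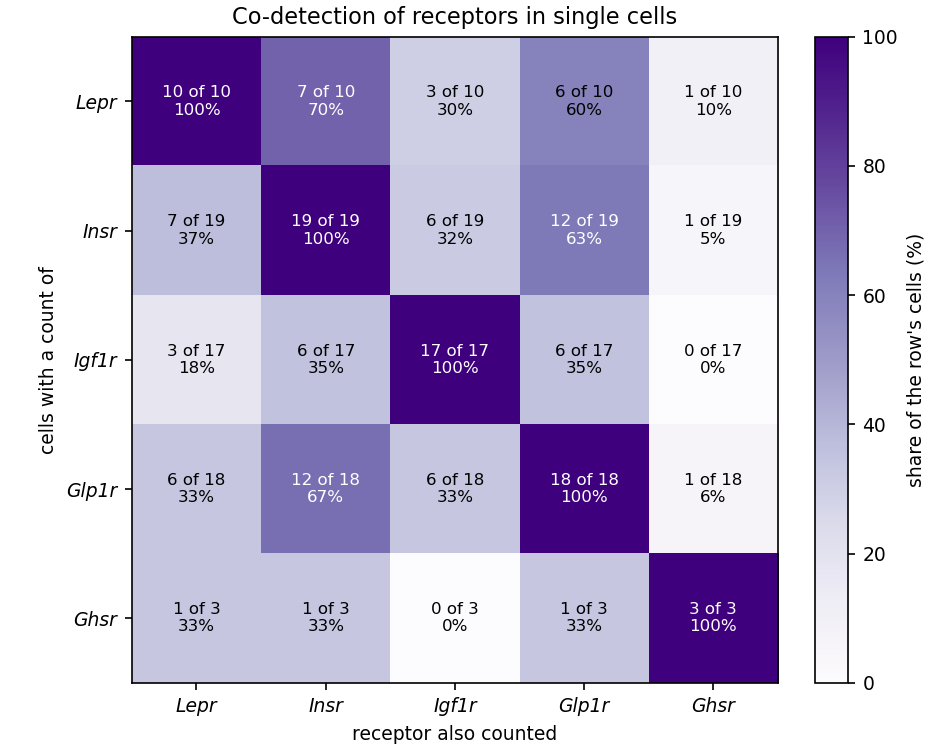
Co-detection of receptors. Each row gives the cells with a count of that receptor, and each square how many of them, and which share in percent, also had a count of the receptor of the column. The darkest squares off the diagonal are *Lepr* with *Insr* (7 of 10 cells) and *Glp1r* with *Insr* (12 of 18 cells).

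The number of receptors in a cell moved with the number of genes counted in it. The median of genes counted was 2079.5 in the 36 cells without a receptor, 2607 in those with 1, 6107 in those with 2, 4302 in those with 3 and 8249.5 in those with 4. The corresponding medians of total counts were 172671, 397617, 613833, 647846 and 600352. Cells with *Lepr* had a median of 5910 genes against 2581.5 in the cells without, and for *Insr* these values were 5619 and 2365, for *Glp1r* 5512 and 2439, and for *Igf1r* 3650 and 2607.

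The pairing of receptors was also seen among the 38 cells above the median of 2670.5 genes counted, a comparison added after the data were examined. These cells still ranged from 2689 to 9808 genes counted, so depth was not held equal, and its part in the pairing was not tested. Among these 38 cells *Glp1r* was counted in 11 of 16 with *Insr* (68.8%, interval 41.3 to 89.0). It was counted in 2 of 22 cells without *Insr* (9.09%, 1.12 to 29.2). *Insr* was counted in 7 of 8 cells with *Lepr* (87.5%, 47.3 to 99.7) and in 9 of 30 without it (30%, 14.7 to 49.4). *Glp1r* was counted in 6 of 8 cells with *Lepr* (75%, 34.9 to 96.8) and in 7 of 30 without (23.3%, 9.93 to 42.3). Only the intervals of *Glp1r* with and without *Insr* did not overlap. *Igf1r* was counted in 5 of 16 cells with *Insr* (31.3%) and 5 of 22 without (22.7%). In these deeper cells at least 1 receptor was counted in 15 of 23 Pomc+ and 10 of 15 Ghost cells, and at least 2 in 8 and 5, whereas in the shallower 38 cells at least 2 were counted in 0 of 19 and 2 of 19.

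**Figure D5:**
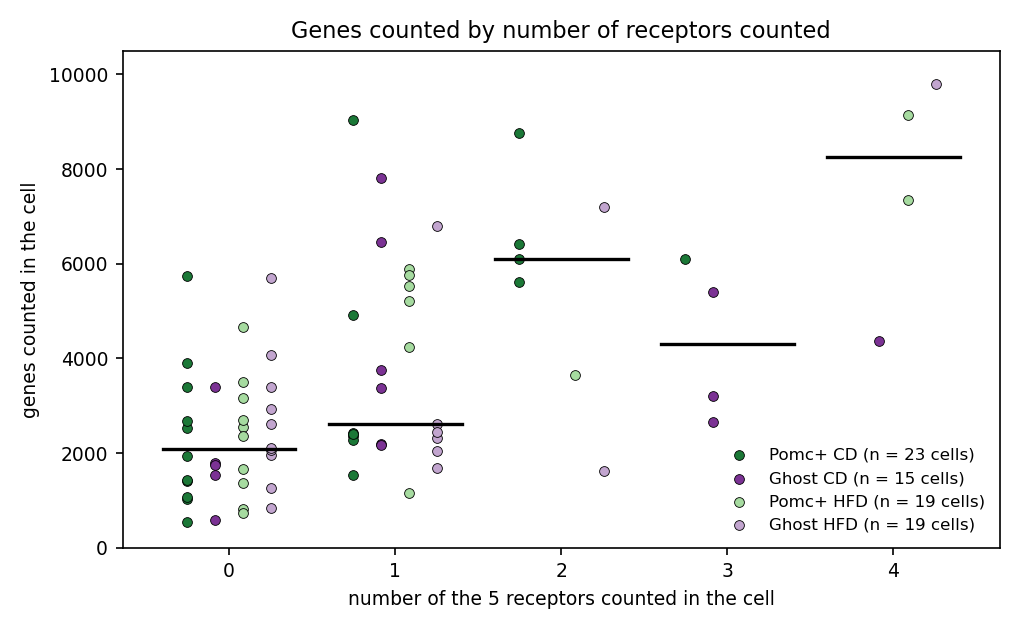
Genes counted in each of the 76 cells, by the number of the 5 receptors counted in it. Points are cells colored by label and diet, and black lines are medians over all cells (2079.5, 2607, 6107, 4302 and 8249.5 genes for 0 to 4 receptors). Cells with 2 or more receptors mostly have over 2670.5 genes counted.

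The genes most often counted in the same cells were found over all 9072 genes with a symbol that were counted in at least 10 cells, by the Jaccard index over the 76 cells. They share the depth of the cells with the receptors, so the index is a description. For *Insr* the nearest genes were *Pank4* (0.667, 14 shared cells), *Erp44* (0.583) and *Unc50* (0.583). For *Glp1r* they were *Pank4* (0.619, 13 shared cells), *Imp4* (0.542) and *Mau2* (0.538), and only 11 of the 9072 genes had a higher index with *Glp1r* than *Insr* did. In the other direction *Glp1r* ranked 64 for *Insr*. For *Lepr* they were *Snora47* (0.615, 8 shared cells), *5430405H02Rik* (0.571) and *Golga1* (0.538), with *Insr* at rank 409. For *Igf1r* the highest index was lower, at 0.393 for *Mau2*, followed by *Rapgef5* (0.391) and *Inpp4a* (0.387).

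Genes that define the identity of these neurons were set against the receptors. *Tbx3*, a transcription factor that maintains *Pomc* neuron identity, was counted in all 10 cells with *Lepr* (interval 69.2 to 100) and in 36.4% of the 66 cells without it (24.9 to 49.1). It was counted in 17 of 19 cells with *Insr* (89.5%, 66.9 to 98.7) against 29.8% of 57 without (18.4 to 43.4), and in 13 of 18 cells with *Glp1r* against 36.2% of 58 without. For *Igf1r* it was 8 of 17 cells against 44.1% of 59. Among the 38 cells above the median of genes counted, *Tbx3* was found in 8 of 8 cells with *Lepr* and 20 of 30 without (66.7%, 47.2 to 82.7), and in 15 of 16 cells with *Insr* and 13 of 22 without (59.1%, 36.4 to 79.3). These last pairs of intervals overlap.

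*Gad1*, which makes the transmitter GABA, was counted in 9 of 10 cells with *Lepr*, 17 of 19 with *Insr* and 15 of 18 with *Glp1r*, against 50%, 43.9% and 46.6% of the cells without. In the cells above the median of genes counted it was found in all cells with these receptors, 8, 16 and 13, and in 80%, 72.7% and 76% of those without, with overlapping intervals. *Slc17a6*, the vesicular glutamate transporter of many hypothalamic neurons, was counted in 3 of 10, 6 of 19 and 7 of 18 cells with those receptors, against 24.2%, 22.8% and 20.7% without. *Pomc* was counted in all cells with *Lepr*, *Igf1r* or *Glp1r* and in 18 of 19 with *Insr*, the exception being Ghost HFD cell 656. *Npy* was counted in 9 of 19 cells with *Insr* (47.4%, interval 24.4 to 71.1) and in 14.04% of 57 without (6.26 to 25.8), but in the deeper cells in 6 of 16 (37.5%) with it and in 4 of 22 (18.2%) without, with overlapping intervals.

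Of 16 genes of the same families, 8 were counted in at least 1 cell and 8 had no count in any cell, where 23013 of all 56980 genes had one. The 8 without a count included *Insrr*, the third member of the insulin receptor family, and *Gcgr*, *Gipr* and *Glp2r*, the closest relatives of *Glp1r*. The 3 counted in most cells were *Adcyap1r1*, the receptor for PACAP (30 cells), *Ntsr2* (15 cells) and *Il6st*, the shared subunit of interleukin 6 family receptors (12 cells). Of the 6 relatives that passed the filter and had a count in both labels, *Lifr* (ratio 9.27) was at least 2-fold higher in Ghost cells, and *Adcyap1r1* (0.383) and *Cntfr* (0.293) at least 2-fold lower. *Lifr* and *Cntfr* were each counted in 8 cells. These 3 of 6, and the 3 of 7 partners, stand beside 41.2% of all genes passing the filter. Of the 9 partner genes, those counted in most cells were *Leprotl1* (29 cells), *Mrap2*, an accessory protein of melanocortin and ghrelin receptors (21 cells), and *Sh2b1*, an adaptor in leptin and insulin signalling (20 cells). *Leprot*, which does not overlap *Lepr* in GENCODE M21, was counted in 11 cells. Among the 7 partners that passed, *Bbs1* (2.28) was at least 2-fold higher in Ghost cells, and *Mrap2* (0.445) and *Ramp1* (0.129) at least 2-fold lower.

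Downstream components ranged widely in how many cells they were counted in. The median was 18 cells for the leptin pathway, 24 for the insulin and IGF1 pathway and 16.5 for the Gs and Gq pathway. In the comparisons of labels that follow, 16.5% of all genes passing the filter were at least 2-fold higher and 24.8% at least 2-fold lower in Ghost cells. All 9 genes of the leptin pathway passed the filter, led by *Grb2* (49 cells), *Stat3* (42 cells) and *Ptpn11* (33 cells), while *Jak2* was counted in 15 cells. Over both diets 2 of the 9, *Grb2* (ratio 2.26) and *Stat5b* (2.51), were at least 2-fold higher in Ghost cells and 1, *Stat5a* (0.464), at least 2-fold lower. The median log2 ratio of the list was -0.30 against -0.15 over all genes. On the deposited scale 2 were past 2-fold higher and 4 lower, where the shares of all genes passing the filter were 11.3% and 37.3%. Of 14 genes of the insulin and IGF1 pathway that passed, with *Irs4* (52 cells) and *Irs2* (40 cells), substrates of the insulin receptor, among those counted in most cells, none was 2-fold higher and 3 were lower (*Akt1* 0.297, *Tsc2* 0.473 and *Foxo1* 0.0358), with a median log2 ratio of -0.23. *Foxo1* was counted in 10 Pomc+ and 1 Ghost cell. On the deposited scale 1 of the 14 was past 2-fold higher and 8 lower, where 37.3% of all genes were lower and the median over all genes was -0.64.

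The Gs and Gq pathway of *Glp1r* and *Ghsr* was led by *Prkacb* (60 cells), a catalytic subunit of protein kinase A, *Gnas*, which encodes the Gs alpha subunit (55 cells), and *Prkaca* (50 cells). All 16 genes passed the filter, and of the 15 with a count in both labels 2 were at least 2-fold higher in Ghost cells, *Gnaq* (2.31) and *Adcy1* (5.34), and 2 lower, *Prkaca* (0.490) and *Plcb4* (0.148). The median log2 ratio was -0.28. *Adcy1* rests on 3 cells. Between diets the pathway lists were mixed. In Pomc+ cells 4 of 9 leptin pathway genes were at least 2-fold higher on HFD and 1 lower, 4 of 14 insulin pathway genes were higher and 3 lower, and 4 of 16 genes of the Gs and Gq list were higher and 1 lower. In Ghost cells these numbers were 1 and 2 of 9, 2 and 4 of 12, and 3 and 2 of 12. Over all genes passing the filter 47.8% were past 2-fold between diets in Pomc+ cells and 53.6% in Ghost cells.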

How the data were processed

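The authors' raw table holds whole-number counts of 56980 Ensembl genes in each of 76 cells. Their normalized table holds a signal, the deposited count divided by 1 size factor per cell. The submitters' processing notes name cutadapt 2.10, STAR 2.7.5a, DESeq2 and the builds GRCm38 and mm10. The annotation release is not given in the sources used here, and 4907 identifiers, which took 36.6% of counts, are absent from GENCODE M21. SMART-Seq libraries carry no molecular identifiers and do not mark strand. All columns were mapped to cells by number.

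Counts were scaled to CPM per cell and averaged over the cells of a label and diet with Python 3.11.15, pandas 2.3.3 and scipy 1.17.1. Gene symbols matched 52073 identifiers. The members and gene lists were chosen with earlier results of these data known. Named genes are the 5 receptors, the 3 genes with the highest Jaccard index for each receptor counted in at least 5 cells, and the 3 members of each list counted in most cells, of which 1 is not reported here. Other list genes are named where past 2-fold or where their count was singled out after values were seen, as were *Tbx3*, *Gad1*, *Slc17a6*, *Agrp* and *Npy* from the list of 11 identity genes. Of the 10 that passed the filter 2 (*Agrp* and *Npy*) were at least 2-fold higher in Ghost cells and none lower. The corresponding shares of all genes passing the filter were 16.5% and 24.8%. On the deposited scale *Pomc* and *Tbx3* were at least 2-fold lower, as were 37.3% of all genes passing the filter. Those of the list counted in most cells were *Pomc*, *Cartpt* (73 cells each) and *Gad2* (47). Ratios of mean CPM were set beside the share of all genes past 2-fold, both for genes reaching 5 counts in 3 or more cells and for genes counted in 5 to 25 cells. The ratio calculation was tried on simulated Poisson counts with the same level of a gene in all cells of a label. Such counts lack the spread of the receptors between cells, so the trial does not bear on it. Alternatives were the deposited scale, other totals, summed counts, detection from 2 or 5 counts, and leaving out each cell. Others were only cells with 1000 genes and no more than 20% mitochondrial counts, and an expected thinning to 40000 counts. For ratios the last only left out the cells below that depth. No doublet caller was run, as cells were patched singly.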

Additional observations from a re-analysis of the deposited data

How the results depend on the processing

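A receptor was often represented by few counts, and 68 of 76 cells reached 40000 counts in all. No paired analysis was possible because cell numbers are unique and the labels name no mouse. Values within 1.5-fold of the reported ratio, or within a share's interval, are taken as similar. The 186 alternative ratios include those of *Ghsr*, for which no ratio is reported as a result. An alternative that left a group without a count gave no ratio. Of the 186, 33 lay on the other side of 1 than the ratio of mean CPM they were set against. Only 1 of these belonged to a ratio past 2-fold, *Insr* in Ghost against Pomc+ cells on CD (2.31), at 0.954 on the deposited scale. Besides this one, 82 of the 186 differed by more than 1.5-fold. Of 256 alternative shares 14 lay outside the interval, and of 70 alternative pair counts 9 moved. The cause was not tested.

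Over both diets, the Ghost to Pomc+ ratio with summed counts was 0.344 for *Lepr* and 0.335 for *Igf1r*. On the deposited scale it was 0.638 for *Insr* and 1.98 for *Glp1r*, and for *Glp1r* 2.08 on CD and 1.71 on HFD. Without the genes counted in every cell it was 2.87 for *Insr*, and 5.11 for *Glp1r* on CD. With summed counts *Glp1r* was 1.72 on CD and 5.97 on HFD. In cells with at least 40000 counts, *Igf1r* was 0.502. In cells above the median of genes counted, added after seeing the data, *Lepr* was 1.201 and *Igf1r* 0.787. Without cells with *Agrp* or *Npy*, also added, *Lepr* was 0.369 and *Glp1r* 7.62. The HFD to CD ratio of *Lepr* was 0.506 in Pomc+ and 0.174 in Ghost cells on the deposited scale, 0.0891 in Pomc+ cells without the genes counted in every cell, and 0.326 in Ghost cells with summed counts.

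Leaving out 1 cell at a time, the Ghost to Pomc+ ratio ran from 0.325 to 0.997 for *Lepr*, 1.27 to 2.08 for *Insr*, 0.823 to 2.32 for *Igf1r* and 2.64 to 5.76 for *Glp1r*. For *Glp1r* it ran from 1.84 to 5.52 on CD and from 2.08 to 15.7 on HFD, the last without cell 654. The HFD to CD ratio of *Lepr* ran from 0.0755 to 0.245 in Pomc+ and from 0.0675 to 0.17 in Ghost cells. The Ghost range does not include leaving out cell 637, the only Ghost HFD cell with *Lepr*. The share of cells with at least 1 receptor was 35.3% of Ghost cells when 5 counts were asked for. This was below the share of Pomc+ cells at 5 counts, whereas at 1 count the Ghost share (55.9%) was above that of Pomc+ cells (50%). The share with at least 2 receptors was 34.8% of Pomc+ cells above the median of genes counted.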

Other observations

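Receptors for other metabolic hormones were counted in the same cells. Of 11 such genes, chosen by name, 8 passed the filter and *Klb*, *Cckbr* and *Gfral* had no count in any cell. The prolactin receptor *Prlr* and the adiponectin receptor *Adipor1* were each counted in 29 cells and the fibroblast growth factor receptor *Fgfr1* in 28. Between labels over both diets 1 of the 8, *Calcr* (3.75, 4 cells), was at least 2-fold higher in Ghost cells and 1, *Cckar* (0.417), at least 2-fold lower, beside 41.2% of all genes passing the filter in either direction. On the deposited scale 1 was higher and 4 were lower, where 11.3% of all genes passing the filter were higher and 37.3% lower. *Npy2r*, through which peptide YY acts, was counted in 19 cells, and 18 of these were among the 40 cells with at least 1 of the 5 receptors. The growth hormone receptor *Ghr* was counted in 14 of those 40 cells and in 2 of the 36 others, and the CCK receptor *Cckar* in 10 and 1. Cells with a receptor also had more genes counted (median 4313.5 against 2079.5), and the part of depth in these values was not tested. *Npy2r*, *Ghr* and *Cckar* were singled out after their values were seen.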
